A study of Mus musculus with 6 samples.

Results

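The small proline-rich proteins (Sprr) were followed here through every probe set whose gene symbol field holds a symbol beginning with Sprr. There were 16 such probe sets, which list 16 genes, of 12422 probe sets and 8949 genes on the array without its controls. The arrays were Affymetrix mouse expression arrays, on which a probe set reports a value drawn from the brightness of a group of short probes. They were hybridised with RNA of total skin taken on day 5 after birth. The GC13 group (n = 3 arrays) was skin of transgenic mice that overexpress Hoxc13, a hair follicle regulator with a homeodomain, and the FVB group (n = 3 arrays) was skin of FVB mice of the same age. The labels give neither the promoter that drives the transgene nor the strain background of the GC13 mice. They do not say whether each array came from a separate animal, so how much of the spread between arrays is technical is not known. The GC13 arrays differed in Y-linked signal, given below, as repeats of a single RNA sample would not. No probe set was matched to Hoxc13 itself, so the transgene's level was not analysed here.

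Sprr proteins are short, rich in proline, and are joined to loricrin, involucrin and other proteins by transglutaminases in the cornified envelope, the tough shell that replaces the cell membrane of dying keratinocytes. Their genes lie side by side in the epidermal differentiation complex. Sprr1 members are known for their part in epidermis and in its response to stress, Sprr3 for its expression in the linings of mouth and oesophagus, and several mouse Sprr2 members for induction in uterus by oestrogen and in gut by bacteria.

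RefSeq (GRCm38.p6) places 17 Sprr genes on chromosome 3 in the order Sprr2a1, Sprr2a2, Sprr2a3, Sprr2b, Sprr2c-ps, Sprr2d, Sprr2e, Sprr2f, Sprr2g, Sprr2h, Sprr2i, Sprr2j-ps, Sprr2k, Sprr1b, Sprr3, Sprr1a and Sprr4. The genes Lor and Ivl, for loricrin and involucrin, flank this run. No probe set of Sprr4 was analysed here. RefSeq lists Sprr2c-ps, Sprr2g and Sprr2j-ps as pseudogenes. Of the 16 probe sets, 12 are of Sprr2 genes. Sprr1b has 2 probe sets, and 2 others list Sprr2a1, Sprr2a2 and Sprr2a3 together, since their transcripts are near-identical. In Affymetrix naming an ending of f_at marks probes shared within a gene family, as on 9 of the 16, and i_at, r_at and s_at also mark reduced or shared probe choice. The signal of one Sprr2 member can therefore hold that of another, and levels are not compared between probe sets.

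The sequences before the annotated start are shown for the Sprr2 genes whose probe sets stood furthest apart between the groups, Sprr2a1, Sprr2b and Sprr2f, and for Sprr2h, a further member with a lower GC13 mean. Each is the 250 bases before the start, 5′ to 3′ on the gene's + strand, from RefSeq's GRCm38.p6, at chr3:92215585-92215834, chr3:92316455-92316704, chr3:92364937-92365186 and chr3:92385435-92385684. Capitals mark matches on either strand to 4 motifs, none of which overlap in these stretches. The AP-1 motif was TGANTCA, bound by Jun and Fos proteins. The Ets core was AGGAAG, bound by factors such as Elf3. The octamer start, bound by POU factors such as Pou2f3, was ATGCAAA. It reads as TTTGCAT on the strand shown. The TATA box was TATAAA.
Sprr2a1: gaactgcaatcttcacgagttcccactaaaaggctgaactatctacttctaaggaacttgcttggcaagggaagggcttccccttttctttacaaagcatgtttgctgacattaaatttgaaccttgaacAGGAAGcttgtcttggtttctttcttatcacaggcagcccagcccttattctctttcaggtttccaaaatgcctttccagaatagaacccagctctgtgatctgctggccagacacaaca
Sprr2b: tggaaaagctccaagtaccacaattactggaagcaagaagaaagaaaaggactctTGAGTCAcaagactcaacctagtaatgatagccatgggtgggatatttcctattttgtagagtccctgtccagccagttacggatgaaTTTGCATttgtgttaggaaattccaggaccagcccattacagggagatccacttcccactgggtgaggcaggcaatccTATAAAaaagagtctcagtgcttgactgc
Sprr2f: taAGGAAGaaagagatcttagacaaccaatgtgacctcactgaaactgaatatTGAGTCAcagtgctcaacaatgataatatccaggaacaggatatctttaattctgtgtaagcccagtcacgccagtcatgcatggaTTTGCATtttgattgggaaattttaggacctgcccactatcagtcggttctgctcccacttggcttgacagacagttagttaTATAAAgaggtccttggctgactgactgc
Sprr2h: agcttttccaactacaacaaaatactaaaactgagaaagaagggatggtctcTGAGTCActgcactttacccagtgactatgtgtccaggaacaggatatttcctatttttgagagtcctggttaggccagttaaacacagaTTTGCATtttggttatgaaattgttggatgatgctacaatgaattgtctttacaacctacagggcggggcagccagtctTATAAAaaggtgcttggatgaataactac

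RefSeq windows that run from 250 bases before to 50 after the start were matched for 14 Sprr genes. The Sprr2b, Sprr2d, Sprr2e, Sprr2f, Sprr2h, Sprr2i and Sprr2k windows share 1 layout. An AP-1 match starts between positions -198 and -193 (Sprr2k holds a further one at -182), an octamer match between -111 and -107 and a TATA match at -29, counted from the start. AP-1 letters stood in 9 of the 14 windows, against 7.81% of all 32851 RefSeq windows, octamer letters in 7 against 4.63%, TATA letters in 10 against 13.6%, and Ets letters in 7 against 35.4%. The HOX13-class letters CAATAAA stood in the Sprr4 window alone (4.6% of all windows) and TCGTAAA in 0 of 14 (0.597% of all windows). Neighbouring Sprr windows share descent and are not independent, and a match is a description of letters.

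The Sprr2b and Sprr2f windows share AP-1, octamer and TATA matches, and are identical at 193 of 289 aligned bases (66.8%). The Sprr2f window also holds an Ets match at -248, which the Sprr2b window lacks. These genes stood on opposite sides of the FVB arrays, and the part of such letters in that was not tested. The Sprr2a1 and Sprr2a2 windows are identical, and neither holds AP-1, octamer or TATA letters. The last 45 bases of the Sprr2a1 window, which lie after its annotated start, match Sprr2b positions -80 to -36 at 41 bases. The Sprr2a1 window thus ends short of the stretch that holds the TATA letters in Sprr2b.

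**Figure D1:**
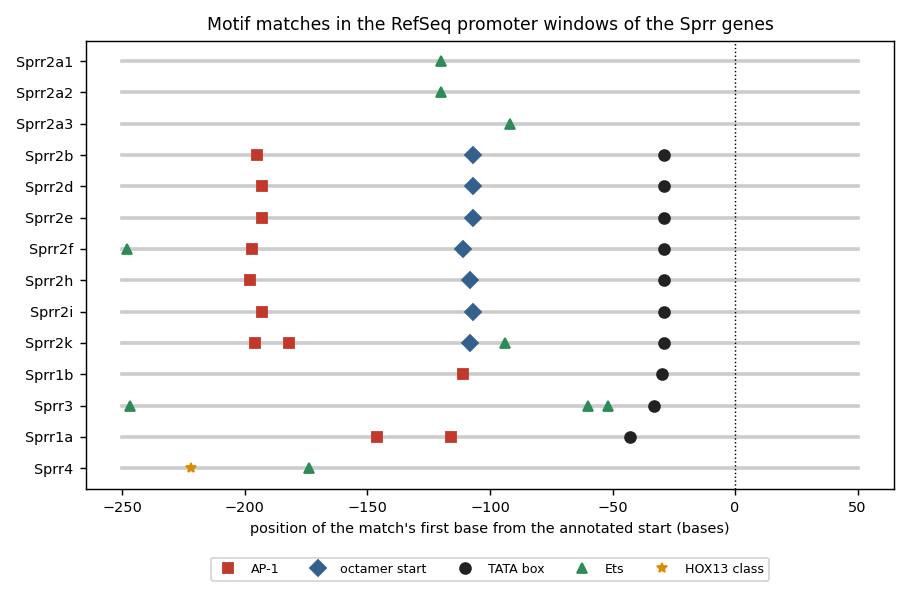
Motif matches in the RefSeq windows of 14 Sprr genes, in chromosome order from top to bottom; the x axis is the position of a match's first base from the annotated start, in bases, and each symbol is 1 match. In 7 Sprr2 genes the AP-1, octamer and TATA matches line up, with the TATA match at -29 in each, while the Sprr2a windows hold Ets matches only.

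The GC13 arrays differed among themselves. The Gapdh control, whose 3′ over 5′ signal ratio grows as RNA breaks or is copied incompletely, had ratios of 2.22, 9.58 and 2.19 on GC13 arrays 1 to 3, against 0.931, 0.958 and 0.894 on the FVB arrays (exact permutation p = 0.1, the smallest that 3 against 3 arrays allow, two-sided). For beta-actin, GC13 replicate 2 again stood apart at 3.80, while the remaining arrays lay between 1.16 and 1.43. The Y-linked gene Eif2s3y read 3.25, 143 and 4.6 on the GC13 arrays, against 69.4, 98.9 and 79.6 on the FVB arrays, and Uty, also Y-linked, read 4.87, 34.7 and 7.19 on the GC13 arrays, against 13.3, 15.2 and 13.8 on the FVB arrays. For Eif2s3y and Uty, replicate 2 thus carried more signal than any FVB array and GC13 replicates 1 and 3 less. Another Y-linked gene, Kdm5d, was below the filter on low values. It read 3.09, 0.636 and 1.33 on the GC13 arrays, against 1.17, 1.31 and 0.515 on the FVB arrays. The X-linked RNA Xist, a dim probe set, read 9.15, 1.07 and 12.6 on the GC13 arrays, against 9.95, 11.9 and 11.7 on the FVB arrays, and was lowest on replicate 2. Without replicate 2, low Y-linked signal and the GC13 group cannot be told apart. Total intensity per array lay between 1.63e+06 and 1.74e+06. Keratinocyte genes Krt1, Krt10 and Lor were bright on every array, while the probe sets of Krt5 and Krt14 were below the filter on low values.

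All 16 Sprr probe sets passed that filter, which left out the dimmest 25% of probe sets. Intensities are the deposited linear values, and fold changes are GC13 minus FVB on the log2(intensity + 2) scale after each array was centred on its median. Over all 9316 tested probe sets, limma called 8 higher in GC13 skin and 36 lower at an adjusted p of 0.05. Of the 16 Sprr probe sets, 3 were called higher, against 0.0859% of all tested, and 1 lower, against 0.386%; the other 12 were not called. At an unadjusted p under 0.05 there were 8 of the 16, against 15.5% of all tested. The 3 called higher belong to the Sprr2a genes and Sprr2b, and the 1 called lower is Sprr2f. The median log2 fold change of the 16 was 0.57, beside 0.08 over all tested, and 12 of the 16 were above 0, beside 57.4% of all tested. In deposited intensity, groups did not overlap for 4 Sprr probe sets that were higher in GC13 skin, against 10.6% of all tested. They did not overlap for 2 that were lower, close to the 12.3% of all tested. After centring, the groups of Sprr2e, Sprr3 and Sprr1a were also apart, with GC13 skin higher. The share of all tested that was apart on that scale was not counted.

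**Figure D2:**
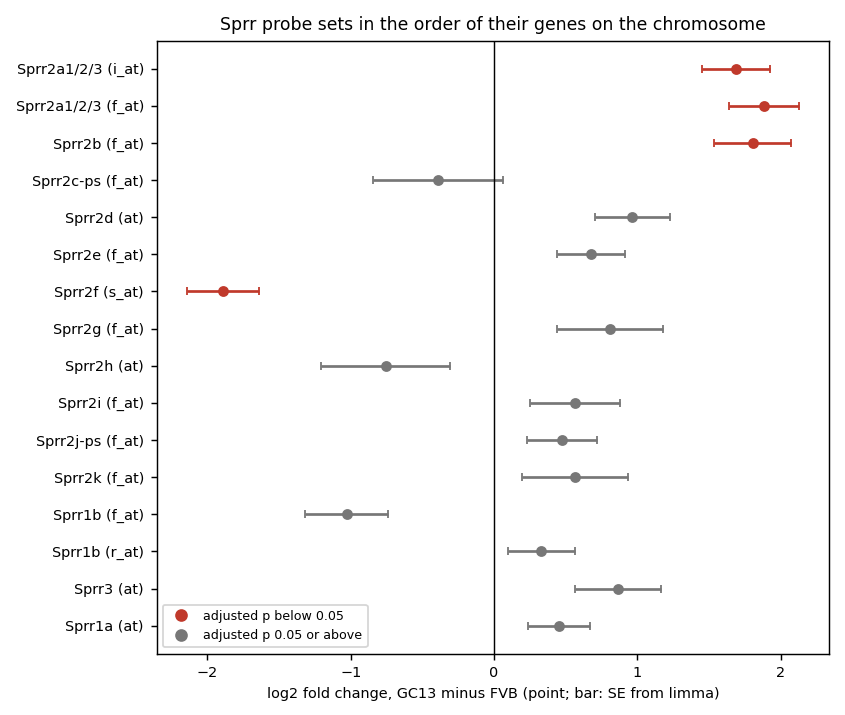
Log2 fold change (x axis, GC13 minus FVB) of each Sprr probe set in the order of its gene on the chromosome, top to bottom; points are estimates, bars are limma's SE, and red marks an adjusted p below 0.05. The Sprr2a sets and Sprr2b lie between 1.68 and 1.88, and Sprr2f, a few genes along, lies at -1.89.

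Sprr2a, the member known in mouse gut for its rise on contact with bacteria, was called on both of its probe sets. Its i_at probe set read 329.5, 310.1 and 323 on the GC13 arrays, against 106, 80.8 and 130 on the FVB arrays. Its f_at probe set read 202, 252 and 193 on the GC13 arrays, against 62.2, 59.5 and 57.6 on the FVB arrays. On both, every GC13 array lay above every FVB array. The means were 321 ± 9.87 in GC13 and 106 ± 24.6 in FVB skin for i_at, and 216 ± 32 in GC13 and 59.8 ± 2.29 in FVB skin for f_at (SD, n = 3 each). The log2 fold changes were 1.68 (SE 0.24, limma adjusted p = 0.0351) and 1.88 (SE 0.24, adjusted p = 0.0324). Since both probe sets name the same 3 genes, they are not independent, and the data do not say which of the 3 carried the difference. The ratio of f_at to i_at signal was 0.613, 0.814 and 0.597 on the GC13 arrays, against 0.588, 0.736 and 0.443 on the FVB arrays, so the probe sets kept about the same proportion in both groups.

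Sprr2b, the next gene along, read 305, 188 and 439 on the GC13 arrays, against 76.1, 82.9 and 104 on the FVB arrays. The lowest GC13 array, replicate 2, was above the highest FVB array. Means were 311 ± 126 in GC13 and 87.8 ± 14.8 in FVB skin, a 3.49-fold difference on the fitted scale (log2 1.80, SE 0.27, limma adjusted p = 0.0420). The probe set is of the f_at kind, with probes shared in the family.

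Sprr2f, known in mouse uterus for its rise under oestrogen, went the other way. It read 12.1, 18.0 and 15.2 on the GC13 arrays, against 69.1, 59.4 and 63.9 on the FVB arrays. All GC13 arrays lay below all FVB arrays, with a gap wider than the spread in either group. Means were 15.1 ± 2.98 in GC13 and 64.1 ± 4.84 in FVB skin, a ratio of 4.25 between the means of FVB and GC13 skin. On the fitted log2(intensity + 2) scale GC13 skin was 3.71-fold lower (log2 -1.89, SE 0.25, limma adjusted p = 0.0342), and with a pseudocount of 32 the log2 difference was -0.99. In bulk skin, fewer cells that express a gene and less of its RNA per cell cannot be told apart, here and for every other member.

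The divergence of Sprr2b and Sprr2f was also taken within each array, where differences in loading cancel. The log2 signal of Sprr2b minus that of Sprr2f was 4.45, 3.25 and 4.68 on the GC13 arrays, against 0.14, 0.47 and 0.69 on the FVB arrays. The means, 4.13 ± 0.77 in GC13 and 0.43 ± 0.28 in FVB skin, differed by 3.69, and the groups did not overlap (exact two-sided permutation p = 0.1, the smallest possible with 3 against 3). Every GC13 array was above every FVB array for Sprr2b and below for Sprr2f, so this separation and its p were fixed beforehand. Because the probe sets differ in brightness, only the change in this quantity between groups carries meaning, and the pair was chosen with its values known.

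GC13 replicate 2 had the highest 3′ over 5′ ratios and the highest Eif2s3y and Uty signal. It lay outside the FVB range in the same direction as replicates 1 and 3 for all 4 called probe sets. The 4 calls nonetheless needed each of the other 5 arrays. Leaving out any 1 array other than GC13 replicate 2 left 0 Sprr probe sets called by limma, with adjusted p between 0.0641 and 0.301 for these 4 and 6 to 8 of the 16 at an unadjusted p under 0.05, against 8.24% to 16.8% of all tested in those fits. No direction among the 4 changed, and none could, since their groups were fully apart.

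**Figure D3:**
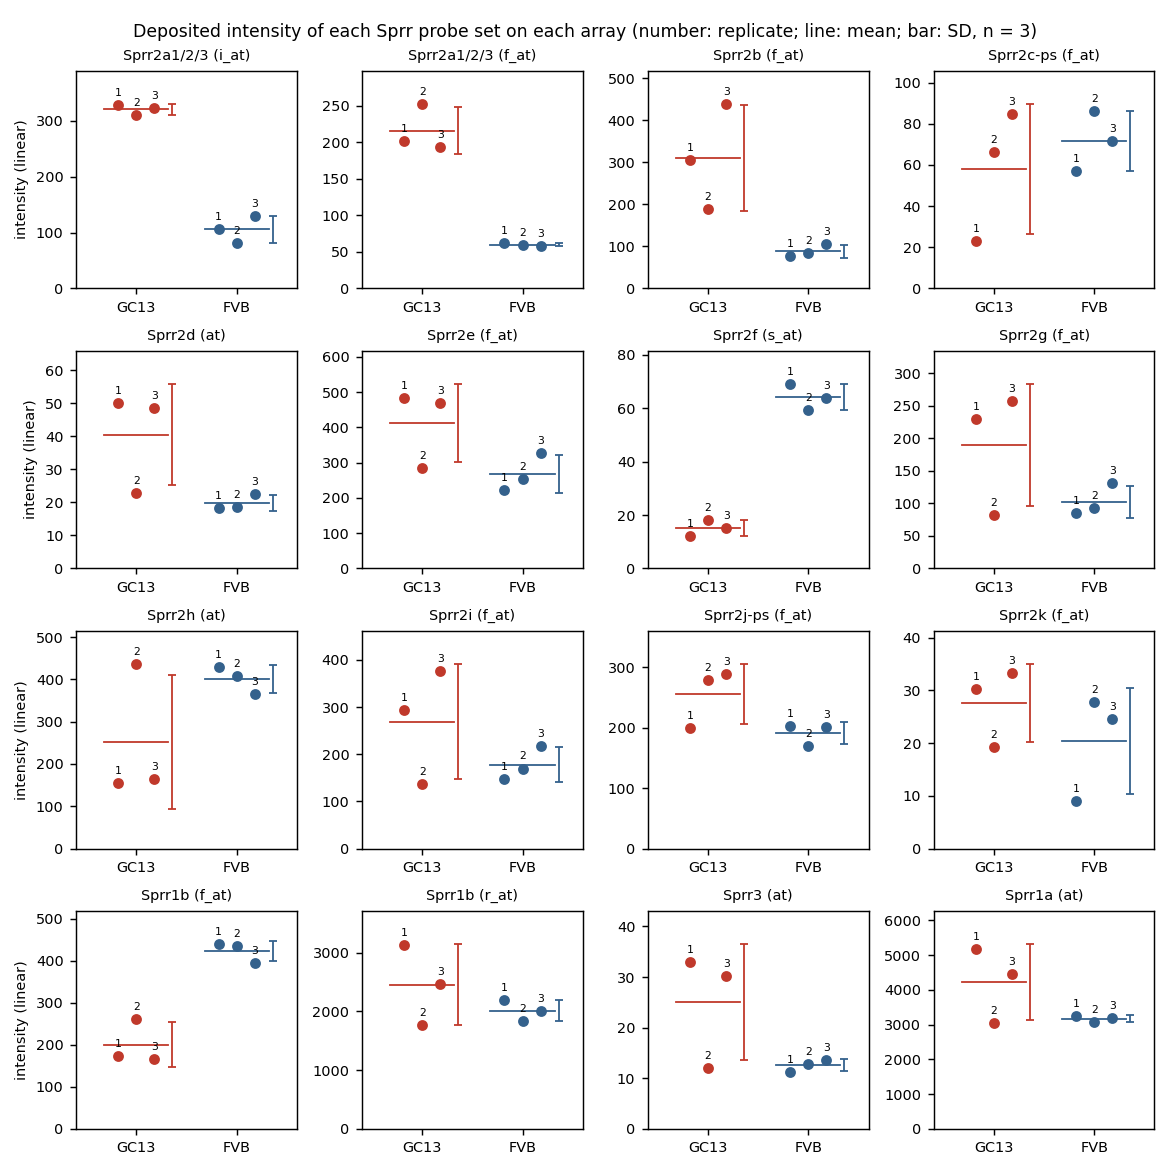
Deposited linear intensity (y axis, from 0, a scale of its own in each panel) of each Sprr probe set on the 3 GC13 arrays (red, left) and the 3 FVB arrays (blue, right); numbers are replicates, horizontal lines means and bars SD (n = 3). GC13 and FVB arrays are fully apart for both Sprr2a sets, Sprr2b, Sprr2d, Sprr2f and the f_at set of Sprr1b, and GC13 replicate 2 sits near the FVB arrays in many other panels.

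Among the other Sprr2 probe sets none was called with all 6 arrays. Sprr2d, a dim probe set and, with Sprr2h, one known to be raised in mice that lack loricrin, read 50, 22.8 and 48.6 on the GC13 arrays, against 18.3, 18.6 and 22.5 on the FVB arrays. Its groups were barely apart, with GC13 replicate 2 next to the FVB arrays (log2 fold change 0.97, SE 0.26, limma adjusted p = 0.158). Sprr2h showed the opposite order. It read 156, 436 and 165 on the GC13 arrays, against 429, 409 and 365 on the FVB arrays. GC13 replicates 1 and 3 were far below the FVB arrays and replicate 2 above all of them (log2 fold change -0.76, SE 0.45, adjusted p = 0.463). The neutrophil markers, all 4 of which have a probe set, summed to 74.6, 176 and 81.8 on the GC13 arrays, against 188, 166 and 183 on the FVB arrays. That sum is mostly S100a8, which keratinocytes also make. The neutrophil gene Ltf lay on the other side (log2 fold change 0.89, adjusted p = 0.298) and Ngp was below the filter on low values. The part of neutrophil RNA in the Sprr2h values was not tested.

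Sprr2e, a coding member of the middle of the cluster, read 483, 286 and 470.3 on the GC13 arrays, against 223, 252 and 329 on the FVB arrays. Sprr2g read 229.8, 82.0 and 257 on the GC13 arrays, against 85.1, 92.5 and 131 on the FVB arrays. Sprr2i read 293, 137 and 377 on the GC13 arrays, against 147, 169.7 and 218 on the FVB arrays. In deposited intensity, GC13 replicates 1 and 3 exceeded every FVB array in each of these 3 family-shared probe sets and replicate 2 did not. On the centred log2 scale of the fit this held for Sprr2g and Sprr2i only. For Sprr2e, replicate 2 stood there 0.38 above the FVB mean, against 0.29 for the highest FVB array. Their log2 fold changes were 0.67, 0.81 and 0.56, with limma adjusted p of 0.242, 0.345 and 0.435.

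The remaining Sprr2 probe sets had groups that overlapped. Sprr2j-ps averaged 255 ± 49.5 in GC13 and 191 ± 18.8 in FVB skin, Sprr2k 27.6 ± 7.37 in GC13 and 20.4 ± 10 in FVB skin, and Sprr2c-ps 57.9 ± 31.8 in GC13 and 71.6 ± 14.5 in FVB skin (SD, n = 3 each). Their limma adjusted p lay between 0.398 and 0.722. Sprr2c-ps and Sprr2j-ps are annotated pseudogenes, and their family-shared probes may read transcripts of other members.

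Sprr1a and Sprr1b encode the Sprr1 proteins, long studied as markers of keratinocyte differentiation. Sprr1a read 5171, 3031 and 4455 on the GC13 arrays, against 3251, 3058 and 3200.1 on the FVB arrays. In deposited intensity replicates 1 and 3 exceeded the FVB arrays and replicate 2 was just under them. On the centred log2 scale of the fit, replicate 2 stood 0.20 above the FVB mean. That was above all FVB arrays, which stood at 0.08, -0.07 and -0.01 (log2 fold change 0.45, SE 0.22, limma adjusted p = 0.366). Under quantile normalization, which forces the same distribution on every array, its log2 fold change was -0.079, so no direction is given for Sprr1a.

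The 2 probe sets of Sprr1b disagreed. The f_at set read 172, 262 and 167 on the GC13 arrays, against 439, 436 and 395 on the FVB arrays, with the groups fully apart (log2 fold change -1.03, SE 0.29, limma adjusted p = 0.168). The r_at set read 3136, 1765 and 2468 on the GC13 arrays, against 2191, 1828 and 2009 on the FVB arrays, with overlap (log2 fold change 0.33, SE 0.23, adjusted p = 0.539). The ratio of r_at to f_at signal was 18.2, 6.74 and 14.8 on the GC13 arrays, against 4.99, 4.20 and 5.09 on the FVB arrays. Every GC13 array had a higher ratio than every FVB array, so the data give no single direction for Sprr1b.

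Sprr3, the oesophageal member, was dim, with 33.0, 11.9 and 30.2 on the GC13 arrays, against 11.2, 12.8 and 13.5 on the FVB arrays. In deposited intensity GC13 replicate 2 lay within the FVB range and replicates 1 and 3 above it. On the centred log2 scale of the fit, replicate 2 stood 0.21 above the FVB mean. That was above all FVB arrays, which stood at -0.09, 0.01 and 0.07 (log2 fold change 0.86, SE 0.30, limma adjusted p = 0.238). Markers of mouth and oesophagus, Krt4 and Krt13, summed to 78.4, 46.8 and 92.3 on the GC13 arrays, against 33.1, 47.7 and 58.7 on the FVB arrays, and were not called. Their part in the Sprr3 values was not tested.

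**Figure D4:**
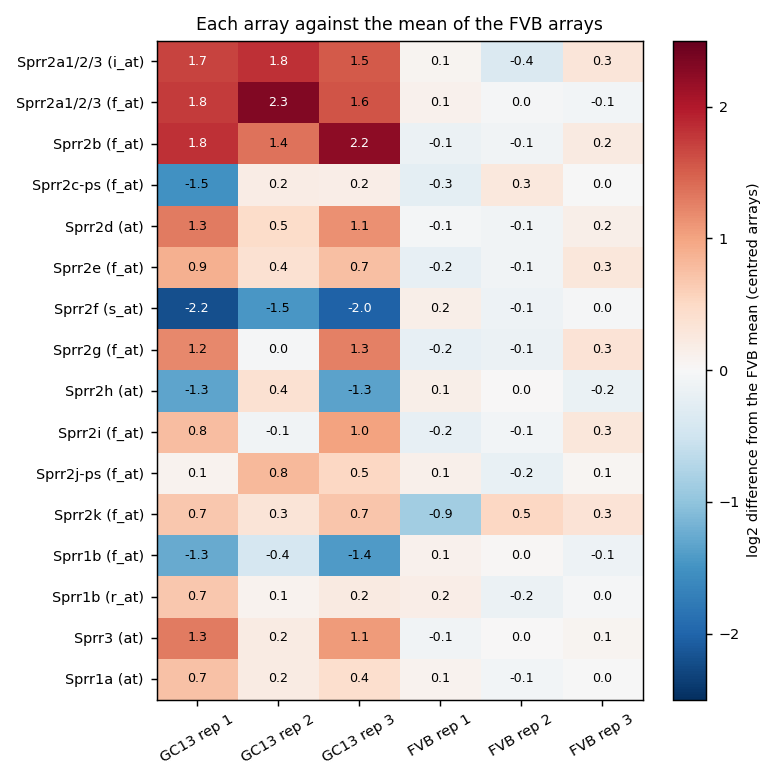
Log2 difference of each array from the FVB mean for each Sprr probe set (rows, in chromosome order), GC13 replicates 1 to 3 in the left columns and FVB replicates 1 to 3 in the right; red is above and blue below the FVB mean. The second column, GC13 replicate 2, is the palest of the GC13 columns in 12 of the 16 rows.

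GC13 replicate 2 was the GC13 array nearest the FVB mean for 12 of the 16 Sprr probe sets, compared with 33.2% of all tested. The exceptions were both Sprr2a sets, Sprr2c-ps and Sprr2j-ps. When replicate 2 was left out, limma called 8 Sprr probe sets higher, against 6.0% of all tested, and 3 lower, against 8.80%. Beside the 4 already called, these were Sprr2d (log2 fold change 1.22, adjusted p = 0.0109), Sprr2e (0.82, 0.0401), Sprr2g (1.23, 0.0186), Sprr2i (0.89, 0.0362) and Sprr3 (1.19, 0.0109) on the higher side. On the lower side they were Sprr2h (-1.33, 0.00874) and the f_at set of Sprr1b (-1.33, 0.00833). With 2 GC13 arrays that both have low Y-linked signal, these further calls stand on a comparison in which that signal differs with the group. The Gapdh 3′ over 5′ ratio was also higher on GC13 replicates 1 and 3 (2.22 and 2.19) than on any FVB array (0.894 to 0.958). That ratio and the group thus cannot be told apart, with or without replicate 2, for the first 4 calls and the further ones. The beta-actin ratio of replicates 1 and 3 (1.26 and 1.43) lay near the FVB range (1.16 to 1.36). Whether RNA quality, or what the sex-linked values of replicate 2 reflect, had a part in the Sprr values was not tested.

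**Figure D5:**
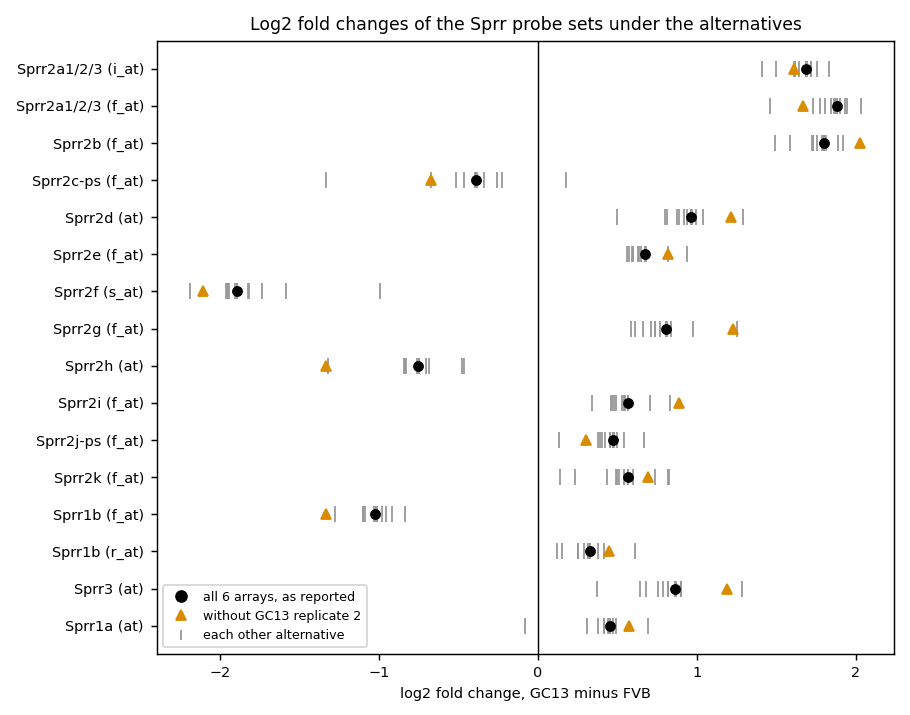
Log2 fold change (x axis, GC13 minus FVB) of each Sprr probe set with all 6 arrays (black), without GC13 replicate 2 (orange triangles) and under each other alternative (grey ticks). Sprr1a and Sprr2c-ps cross 0 under 1 alternative each, and the other 14 probe sets stay on 1 side of it.

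Other proteins of the cornified envelope gave mixed values. Of 13 listed genes with a tested probe set, 0 were called higher (0.0859% of all tested) and 1 lower (0.386%) by limma, and 6 had an unadjusted p under 0.05 (15.5% of all tested). Without GC13 replicate 2, 3 were called higher (6.0% of all tested) and 1 lower (8.80%), the last near its background. With all arrays there were 7 above 0 and 6 below, with a median log2 fold change of 0.13. The one called was Krt77, a keratin of upper epidermis and sweat ducts, with 451, 374 and 429.96 on the GC13 arrays, against 1060.3, 1066 and 1152 on the FVB arrays (log2 fold change -1.31, adjusted p = 0.0370). Krt2, a keratin of upper epidermis, stood by its brighter probe set (-0.63, adjusted p = 0.203), but its other probe set was called lower, with 7.40, 11.02 and 8.85 on the GC13 arrays, against 42.1, 41.6 and 44.1 on the FVB arrays (-1.95, adjusted p = 0.0294). Loricrin's gene Lor read 2397, 796 and 2492 on the GC13 arrays, against 1103, 1269 and 1373 on the FVB arrays, the same order of arrays as Sprr2g and Sprr2i. Involucrin's gene Ivl had a log2 fold change of -0.26. The suprabasal keratin gene Krt1 read 3661, 1489 and 3338 on the GC13 arrays, against 1435, 1216 and 1216 on the FVB arrays (1.11, adjusted p = 0.158). Filaggrin's gene Flg read 1910.0, 1132 and 1497 on the GC13 arrays, against 709, 780.1 and 761 on the FVB arrays (1.05, adjusted p = 0.0977). Both had all GC13 arrays above all FVB arrays. The summed keratinocyte markers, of which Krt1, Krt10 and Lor make up nearly all, were 8262, 4613 and 7846 on the GC13 arrays, against 4765, 4475 and 4663 on the FVB arrays. Krt1 and Lor set that pattern, since Krt10 read 2192, 2324 and 1991 on the GC13 arrays, against 2221, 1986 and 2064 on the FVB arrays.

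The enzymes that cross-link or process the envelope had 5 tested genes, of which limma called 0 in either direction (2 at an unadjusted p under 0.05, against 15.5% of all tested). Without GC13 replicate 2, 1 was called higher (6.0% of all tested) and 0 lower. Of the 5, 4 were above 0, with a median log2 fold change of 0.35. The lipoxygenase gene Alox12b read 242, 115 and 231 on the GC13 arrays, against 104, 97.7 and 96.7 on the FVB arrays (log2 fold change 0.96, adjusted p = 0.155). Tgm3, the transglutaminase that acts on Sprr proteins along with Tgm1, had a log2 fold change of -0.76 (adjusted p = 0.278), and the lipoxygenase gene Aloxe3 had 0.50 (adjusted p = 0.416).

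Sprr genes rise with other genes when epidermis is wounded or inflamed, and 13 such genes were tested. Limma called 0 of them, and 2 had an unadjusted p under 0.05, close to the 15.5% of all tested. Without GC13 replicate 2, 1 was called higher and 1 lower, close to the 6.0% and 8.80% of all tested. Of the 13, 9 were above 0, with a median log2 fold change of 0.20. Krt6b, a keratin of wounded epidermis, read 174, 59.7 and 217 on the GC13 arrays, against 60.8, 15.2 and 65.2 on the FVB arrays (log2 fold change 1.75, adjusted p = 0.231). Serpinb3a, a protease inhibitor, read 146, 75.0 and 121 on the GC13 arrays, against 44.1, 50.8 and 43.2 on the FVB arrays (1.30, adjusted p = 0.0746). S100a8, an alarmin of neutrophils and stressed keratinocytes, read 46.1, 146 and 51.1 on the GC13 arrays, against 162, 139 and 155 on the FVB arrays (-1.01, adjusted p = 0.355). The GC13 array nearest the FVB arrays was again replicate 2.

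S100 genes lie near the Sprr genes in the same complex. Of 10 tested, limma called 0, and 1 had an unadjusted p under 0.05 (15.5% of all tested). Without GC13 replicate 2, 0 were called higher (6.0% of all tested) and 2 lower (8.80%). With all arrays, the list had 4 members above 0 and a median log2 fold change of -0.30. After S100a8, the largest differences by each gene's brightest probe set were those of S100a1 (-0.64, adjusted p = 0.376) and S100a4 (0.49, adjusted p = 0.319). Dimmer probe sets of S100a3 (-0.88, limma adjusted p = 0.211) and S100a14 (0.88, adjusted p = 0.217) had larger ones.

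Of 20 tested transcription factor genes reported as regulators of Sprr genes, limma called 0, and 4 had an unadjusted p under 0.05, near the 15.5% of all tested. Without GC13 replicate 2, 2 were called higher and 2 lower, near the 6.0% and 8.80% of all tested. The median log2 fold change was -0.04. Elf3, an epithelial Ets factor, read 8.36, 21.7 and 13.0 on the GC13 arrays, against 36.5, 40.4 and 56.9 on the FVB arrays, with no overlap (log2 fold change -1.49, adjusted p = 0.140). The AP-1 gene Junb read 81.4, 52.8 and 112 on the GC13 arrays, against 148, 145 and 134 on the FVB arrays (-0.77, adjusted p = 0.198). The AP-1 gene Fos read 157, 277 and 173 on the GC13 arrays, against 128, 121 and 115 on the FVB arrays (0.76, adjusted p = 0.298). Junb and Fos thus stood on opposite sides of the FVB arrays. The other AP-1 genes tested had log2 fold changes of 0.05 (Jun), 0.18 (Jund), 0.63 (Fosb), -0.55 (Fosl1) and 0.35 (Fosl2). Pou2f3, an octamer-binding factor of upper epidermis, read 345, 139 and 295 on the GC13 arrays, against 194, 184 and 189 on the FVB arrays (0.43).

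Sprr1a, the brightest probe set that lists a single Sprr gene, was set against all other tested probe sets over the 6 arrays. The 3 most like it were Rpl41, a ribosomal protein gene (Pearson r = 0.997), Lgals1, the gene of galectin-1 (0.995), and Krtdap, a keratinocyte differentiation gene (0.993). Rpl41 read 6705, 3151 and 4930.3 on the GC13 arrays, against 3375, 3013 and 3264 on the FVB arrays. All of them are bright, and the 100 brightest probe sets as a whole had median log2 differences from the FVB mean of 0.41, 0.29 and 0.05 on the GC13 arrays, against 0.09, -0.07 and -0.03 on the FVB arrays. These r values describe 6 arrays and carry no test.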

How the data were processed

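RNA of total skin was measured on 6 single-sample Affymetrix mouse arrays, 3 GC13 and 3 FVB. The deposited values are linear intensities, 1 per probe set; each array's mean with the top and bottom 2% left out is 100, so the authors' values were scaled per array. Which software and background correction made them is not given in the sources used here. Of 12488 probe sets, 66 controls were left out. Genes were named through the platform annotation (10833 probe sets with 1 symbol, 396 with several, 1193 with none); all 16 Sprr entries matched RefSeq by gene ID.

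From the deposited intensities, log2(intensity + 2) was centred on each array's median, and these medians spanned 0.345 on that scale. The dimmest 25% of probe sets by mean were left out. limma 3.58.1 (lmFit, eBayes; R 4.3.3) compared GC13 with FVB over 9316 probe sets, two-sided, with Benjamini-Hochberg adjustment and a threshold of 0.05; the adjusted p printed are from it. The pipeline was tested on simulated data. Exact permutation tests used SciPy 1.17.1 and window alignments Biopython 1.88. The 6 arrays limit the precision.

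The members, the related gene lists and the tests were chosen with earlier results of these data known. Every Sprr probe set is named; from each list, the genes called, or otherwise the 3 with the largest absolute log2 fold change. Krt1, Krt2, Krt10, Flg, Lor, Ivl, Ltf, Ngp, Pou2f3, Jun, Jund, Fosb, Fosl1, Fosl2, Acta1, Ckm, Kdm5d, S100a3 and S100a14 were named beyond that rule, after their values were seen. A gene in a list stands by its brightest probe set. Alternatives varied the pseudocount, filter, centring, normalization, variance trend, array weights, replicate block and each array left out.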

Additional observations from a re-analysis of the deposited data

How the results depend on the processing

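The number of Sprr probe sets called was 4 with all 6 arrays and stayed between 3 and 4 under other pseudocounts, filters, centring, quantile normalization, a variance trend and the replicate block. It was 14 with array weights, 10 higher and 4 lower, where 2050 of all 9316 tested were called higher and 1800 lower. Over Sprr probe sets that list 1 gene it was 2. Leaving out 1 array gave 0 to 11 calls, 0 to 8 higher and 0 to 3 lower; the 11 came without GC13 replicate 2, and every other array left out gave 0. With the lowest 50% of probe sets left out 0 were lower, since Sprr2f was among those left out. Sprr2b lost its call without the filter (adjusted p = 0.0558), without centring (0.0910) and under quantile normalization (0.0785). Over all probe sets 44 were called, 119 with a pseudocount of 32, 23 with the lowest 50% left out, 28 without centring (2 higher and 26 lower, against 8 and 36 with it), 3850 with array weights, 78 with the replicate block and 0 to 1379 with 1 array left out. Each FVB array left out gave the 0, with 768 to 946 probe sets at an unadjusted p under 0.05. The Sprr2b minus Sprr2f difference of 3.69 was 2.49 with a pseudocount of 32. The log2 fold change of Sprr2c-ps ranged between -0.67 and 0.18 with 1 array left out, turning positive without GC13 replicate 1, and that of Sprr1a turned to -0.079 under quantile normalization. The cause of these changes was not tested. Deviations of arrays with the same number correlated at -0.07, 0.18 and 0.36, and not every array correlated best with its own number. With 3 arrays per group, these values cannot decide whether array numbers pair the samples. The replicate block left the Sprr count at 4. The median over all tested probe sets moved between 0.01 without centring and 0.14 without the filter.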

Other observations

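Markers of other cell types in skin were summed on each array, with no test of the sums. Melanocyte markers summed to 748, 462 and 707 on the GC13 arrays, against 952, 883 and 940.2 on the FVB arrays. Fibroblast collagens summed to 8535, 6486 and 7384 on the GC13 arrays, against 5755, 5377 and 5284 on the FVB arrays. Skeletal muscle markers summed to 2303, 2111 and 2426 on the GC13 arrays, against 1996, 2088 and 1933 on the FVB arrays. For these 3 cell types the groups did not overlap. Over all tested probe sets, 10.6% did not overlap with GC13 skin higher and 12.3% with it lower. Limma called none of the 9 tested markers, of which 5 had an unadjusted p under 0.05 (15.5% of all tested). The muscle sum, mostly Acta1, was barely apart, at 2111 against 2088 for the nearest arrays. The muscle marker Ckm lay on the other side, with overlap (log2 fold change -0.10, limma adjusted p = 0.831). Hair follicle markers (7650 to 9337 on the GC13 arrays, against 8477 to 8792 on the FVB arrays), leukocyte markers (208 to 263 on the GC13 arrays, against 239 to 253 on the FVB arrays) and the adipocyte gene Adipoq (775 to 1197 on the GC13 arrays, against 743 to 790 on the FVB arrays) overlapped between the groups.

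Among the hair follicle markers, the inner root sheath keratin gene Krt72 was called lower by limma. It read 474, 361 and 424 on the GC13 arrays, against 1089, 1103 and 1216 on the FVB arrays (log2 fold change -1.37, adjusted p = 0.0351). The other 3 of the 4, Krt25, Krt27 and Krt71, were not called.

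A further Junb probe set, chosen after its values were seen, read 29.7, 3.76 and 9.75 on the GC13 arrays, against 105, 89.1 and 107 on the FVB arrays (log2 fold change -2.91, limma adjusted p = 0.0653).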
